A study of Mus musculus with 12 samples.

Results

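Cdh1, Epcam, Esrp1, Cldn6, Cldn7, Ocln, Krt18, Cdh2 and Vim are 9 genes by which epithelial and mesenchymal states are commonly told apart, and their RNA levels were followed in mouse embryonic stem cells in which Foxd3 was deleted or overexpressed. Foxd3 is a forkhead family regulator known from pluripotent cells and the neural crest. The members were the rows of the deposited tables that carry these gene symbols. All 9 were found, of 19996 genes in the serum and overexpression tables and of 19718 in the 2i table, and all 9 passed the filter on low values in every comparison. 12 libraries of polyadenylated RNA fell into 6 groups of 2. The SL Foxd3-/- group held Foxd3fl/fl;Cre-ER cells given 4-hydroxytamoxifen (2 µM for 3 days), which activates the Cre recombinase that removes the floxed gene, and the SL Foxd3fl/fl group held the same line without tamoxifen. Both grew on irradiated mouse embryonic fibroblast feeders in 15% serum with leukemia inhibitory factor (LIF). The 2i Foxd3-/- and 2i Foxd3fl/fl groups held the same line, treated and untreated in the same way, in serum-free N2B27 medium with the MEK inhibitor PD0325901 (0.4 µM), the GSK3β inhibitor CHIR99021 (3 µM) and LIF, for which the protocol names no feeders. The tetON Foxd3 Dox group held a line with a doxycycline-inducible Foxd3, and the WT Dox group held wild-type LF2 cells. Both lines grew without feeders in 15% serum with LIF and received doxycycline for 3 days (1 µg/µl for the tetON line; the WT dose is not given separately). No group received tamoxifen without the floxed allele, both doxycycline groups are different lines, and the labels do not say whether paired replicates were grown apart. The p-values therefore measure only the spread between these libraries, which may be technical.

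E-cadherin, encoded by Cdh1, joins neighbouring epithelial cells at adherens junctions, where catenins tie it to actin, and naive embryonic stem cells also hold together through it. N-cadherin (Cdh2) takes over this role in many mesenchymal and neural cells, and the exchange of E-cadherin for N-cadherin together with a gain of vimentin, the intermediate filament protein encoded by Vim, is the textbook picture of an epithelial to mesenchymal transition (EMT). Claudins (Cldn6, Cldn7) and occludin (Ocln) seal tight junctions, EpCAM (Epcam) is an epithelial adhesion protein that binds claudin-7, keratin 18 (Krt18) forms filaments with keratin 8, and ESRP1 is an RNA-binding protein that directs epithelial splicing. Repressors such as SNAI1 and ZEB1 bind E-box sequences in epithelial promoters.

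Promoter sequence of 6 members (Epcam, Vim, Cldn6, Cldn7, Ocln and Krt18) was matched in the RefSeq promoter table of build GRCm38.p6. Cdh2 was left out of this search, and Cdh1 and Esrp1 had no entry. Promoters are printed for 4 genes whose levels separate the groups below: Epcam and Vim, which both fell in the 2i comparison, Cldn6, which rose there, and Krt18, a keratin with one of the widest ranges of levels over the groups. Each is the 250 bases before the annotated RefSeq start, 5′ to 3′ on the plus strand, at chr17:87635729-87635978 for Epcam, chr2:13574061-13574310 for Vim, chr17:23679115-23679364 for Cldn6 and chr15:102027966-102028215 for Krt18. The GENCODE gene starts given below lie upstream of the RefSeq starts for Vim, Cldn6 and Krt18. By GENCODE the Vim window lies within the gene, and the Cldn6 and Krt18 windows run past the gene start. Capitals mark an E-box (CAGGTG, or CACCTG as the same motif on the other strand) or a TATA box (TATAAA, searched also as TTTATA).
Epcam: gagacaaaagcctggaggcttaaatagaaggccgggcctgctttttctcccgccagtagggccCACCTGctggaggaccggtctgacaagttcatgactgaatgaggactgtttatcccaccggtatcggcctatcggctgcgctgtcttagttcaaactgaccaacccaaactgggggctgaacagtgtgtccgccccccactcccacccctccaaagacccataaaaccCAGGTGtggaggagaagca
Vim: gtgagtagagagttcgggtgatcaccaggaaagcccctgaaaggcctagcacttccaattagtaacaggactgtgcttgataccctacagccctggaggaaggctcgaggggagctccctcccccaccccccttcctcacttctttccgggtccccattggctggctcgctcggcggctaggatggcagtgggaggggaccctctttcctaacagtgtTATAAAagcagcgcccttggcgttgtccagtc
Cldn6: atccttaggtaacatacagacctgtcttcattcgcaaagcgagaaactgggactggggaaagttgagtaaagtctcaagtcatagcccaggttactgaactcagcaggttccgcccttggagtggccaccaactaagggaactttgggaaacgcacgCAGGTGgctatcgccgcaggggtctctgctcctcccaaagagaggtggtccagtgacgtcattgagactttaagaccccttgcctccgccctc
Krt18: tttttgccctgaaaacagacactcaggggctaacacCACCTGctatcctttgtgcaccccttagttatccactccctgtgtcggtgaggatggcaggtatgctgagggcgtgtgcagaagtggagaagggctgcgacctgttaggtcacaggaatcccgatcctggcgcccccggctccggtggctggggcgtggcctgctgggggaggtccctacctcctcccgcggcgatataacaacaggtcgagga

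The Epcam promoter held 2 E-boxes, with first bases at -187 and -19 from the start, the Cldn6 promoter held 1 at -93 and the Krt18 promoter 1 at -214. The Vim promoter held no E-box and had a TATA box at -32. Cldn7 and Ocln each have 2 annotated starts in the table, and 1 window of each held 2 E-boxes, at -97 and -57 for Cldn7 and at -213 and -68 for Ocln. An E-box of these letters was present in 17.2% of the 32851 promoter windows of this length, a TATA box in 12.4%, and the forkhead motif TGTTTAC (or GTAAACA) in 3.17%. No forkhead match was found in the windows of the matched members. These matches describe letters in the window and are not binding sites.

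Foxd3 itself was at 1.62 and 1.83 FPKM (fragments scaled to transcript length and library size) in the SL Foxd3-/- libraries, against 4.53 and 4.81 FPKM in SL Foxd3fl/fl (limma adjusted p = 0.137). It was at 53.2 and 50.1 FPKM in tetON Foxd3 Dox, against 10.6 and 14.1 FPKM in WT Dox (limma adjusted p = 0.0145). In 2i it was at 2.07 and 2.45 FPKM in the libraries labelled Foxd3-/-, against 2.51 and 2.42 FPKM in 2i Foxd3fl/fl (limma adjusted p = 0.461). The authors' deposited table gave a fold of 1.70, higher in 2i Foxd3-/-, with an adjusted p of 9.4e-06. A fall of the targeted gene passed neither test, and every 2i difference below is between libraries by their labels. In the GENCODE annotation of GRCm38, Cdh1 lies at chr8:106603351-106670246 and Cdh2 at chr18:16588877-16809246. Epcam lies at chr17:87635979-87651129, Esrp1 at chr4:11331933-11386783, Vim at chr2:13573927-13582826 and Krt18 at chr15:102028180-102032027. Cldn6 lies at chr17:23679249-23682446, Cldn7 at chr11:69964779-69967885 and Ocln at chr13:100496507-100552718. All are protein-coding, and the FPKM values cover their exons as the authors counted them. Pou5f1, a defining gene of pluripotent cells, was high in all 12 libraries, at 404 to 782 FPKM. The depth of single libraries is unknown. The authors' group mean reads summed to 24278900 and 27062500 in the 2i groups and to between 52789800 and 54096100 in the other 4, and 11033 to 11919 genes reached 1 FPKM in a library.

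For 8 of the 9 genes the 2 highest group means were those of the 2 SL groups, and Vim was the exception. The tables were normalized separately, so levels across tables are a description with no test. Esrp1 averaged 30.3 ± 1.03 FPKM in SL Foxd3-/- and 29.3 ± 0.0880 FPKM in SL Foxd3fl/fl, against group means of 2.56 to 4.05 FPKM in the other 4 groups (SD, n = 2 each). Krt18 had the same shape, with 107.6 ± 1.30 FPKM in SL Foxd3-/-, 73.6 ± 9.51 FPKM in SL Foxd3fl/fl and means of 9.33 to 11.7 FPKM elsewhere. The highest group mean was 11.8 times the lowest for Esrp1 and 11.5 times for Krt18. For both genes the 2 SL groups stood apart from each other and from all other groups in their ranges, and tetON Foxd3 Dox, 2i Foxd3-/- and WT Dox each overlapped at least 1 neighbour in the order.

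The claudins and Epcam were also highest in SL, with different orders below it. Cldn7 averaged 48.1 ± 1.84 FPKM in SL Foxd3-/- and 61.3 ± 1.62 FPKM in SL Foxd3fl/fl. It was lower in 2i Foxd3-/- (32.4 ± 1.45 FPKM) and 2i Foxd3fl/fl (23.6 ± 0.738 FPKM), and lowest in tetON Foxd3 Dox (6.47 ± 2.04 FPKM) and WT Dox (6.26 ± 1.82 FPKM), which overlapped. Cldn6 had the same order of groups, with a mean of 58.7 ± 0.524 FPKM in SL Foxd3-/- and 65.4 ± 4.69 FPKM in SL Foxd3fl/fl and the lowest mean, 8.22 ± 2.06 FPKM, in WT Dox, and its 3 lowest groups overlapped their neighbours. Epcam was lowest in 2i Foxd3-/- (26.7 ± 1.07 FPKM) and highest in SL Foxd3fl/fl (153 ± 12.04 FPKM), with no neighbours overlapping. Ocln stayed low, with group means between 1.49 and 5.96 FPKM.

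Cdh1 kept the narrowest range, with group means between 70.6 and 158 FPKM, the highest 2.23 times the lowest. Cdh2 was at a low level in every group, between a mean of 7.11 ± 0.869 FPKM in SL Foxd3-/- and 1.09 ± 0.0464 FPKM in 2i Foxd3fl/fl (SD, n = 2 each). Vim was abundant everywhere, and its order was its own. It was highest in tetON Foxd3 Dox (277 ± 27.3 FPKM) and SL Foxd3-/- (273 ± 44.4 FPKM), whose ranges overlapped, and lowest in 2i Foxd3-/- (107 ± 8.66 FPKM). In each library Cdh1 exceeded Cdh2, by FPKM ratios between 17.1 and 126.

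**Figure D1:**
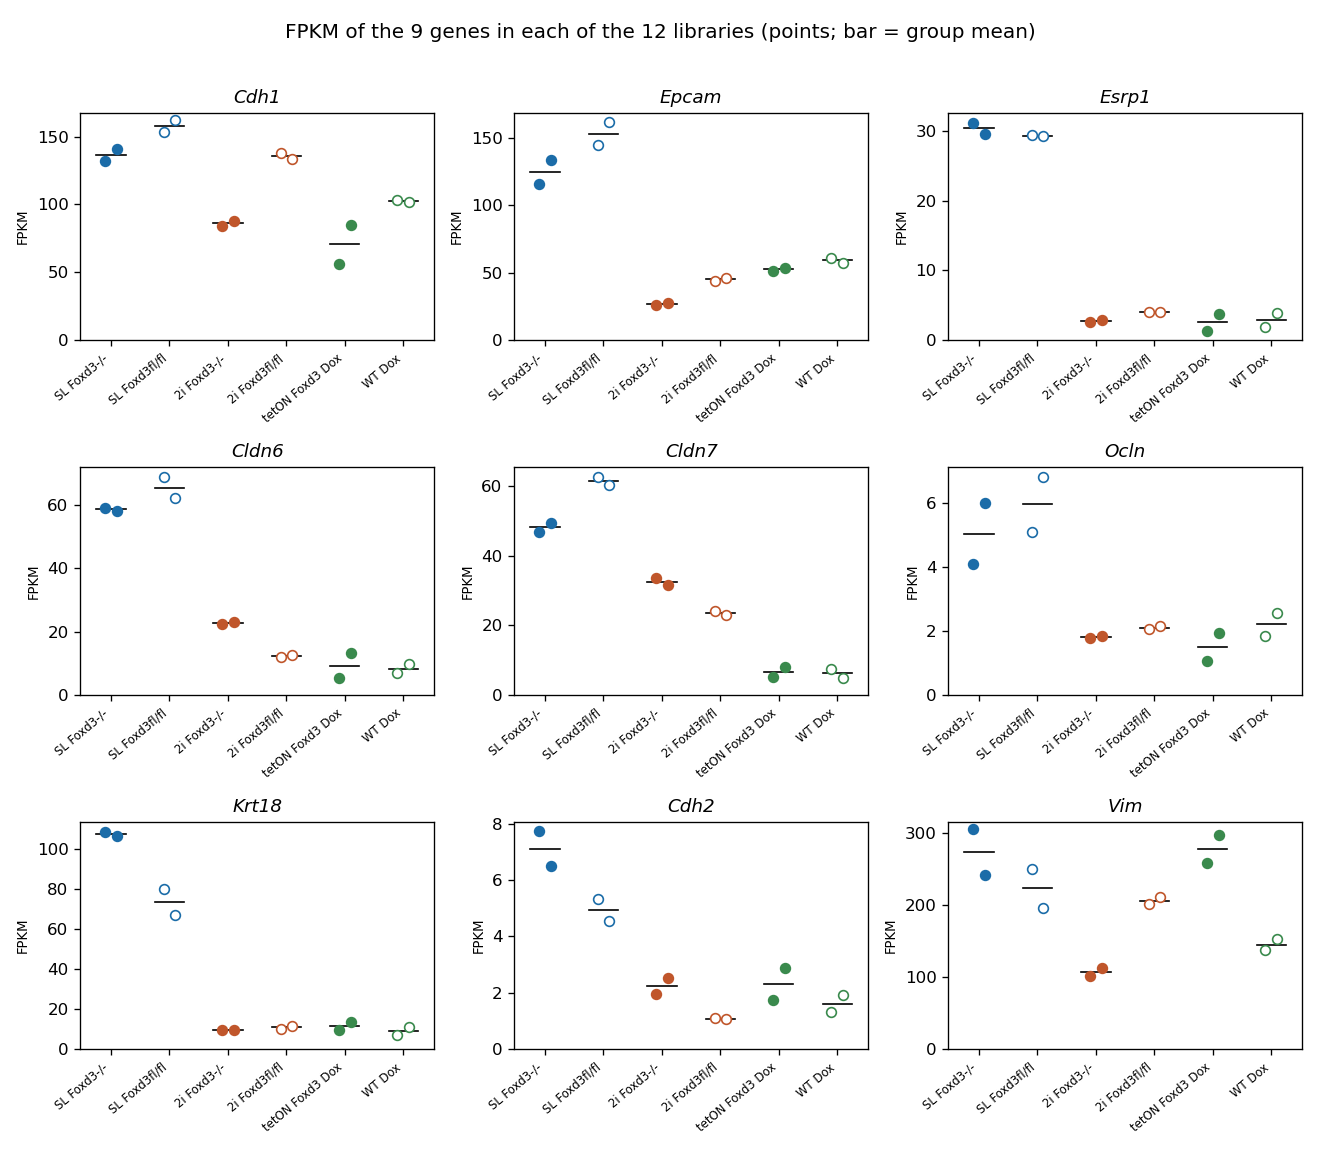
FPKM (vertical axes, linear from 0) of the 9 genes in each of the 12 libraries, with filled points for SL Foxd3-/-, 2i Foxd3-/- and tetON Foxd3 Dox, open points for the group each is set against, and bars for group means of 2 libraries. Esrp1, Krt18, Cldn6 and Cldn7 were highest in both SL groups, while Vim was highest in tetON Foxd3 Dox and SL Foxd3-/-.

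The SL groups are those with feeders, and the fibroblast markers followed them. The summed FPKM of 22 fibroblast markers, all in the tables, was 476 and 436 in SL Foxd3-/- and 275 and 321 in SL Foxd3fl/fl, against 28.4 to 34.6 in the 2i libraries and 36.0 to 48.6 in the doxycycline libraries. Col1a1, a fibroblast collagen, was at 48.0 and 44.96 FPKM in SL Foxd3-/- and 26.6 and 37.5 FPKM in SL Foxd3fl/fl, against 8.06 and 7.57 FPKM in 2i Foxd3-/-, 3.23 and 3.63 FPKM in 2i Foxd3fl/fl, and 0.244 to 0.720 FPKM in the doxycycline libraries. Col3a1 was listed at 0 in all 4 doxycycline libraries and lay between 0.153 and 0.744 FPKM in 2i and between 7.23 and 10.3 FPKM in SL. Feeder RNA, serum and table cannot be told apart in the levels of SL against 2i, and feeders, cell line and table cannot be told apart in SL against the doxycycline groups. In bulk RNA, fewer cells of a type and less RNA per cell cannot be told apart either.

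**Figure D2:**
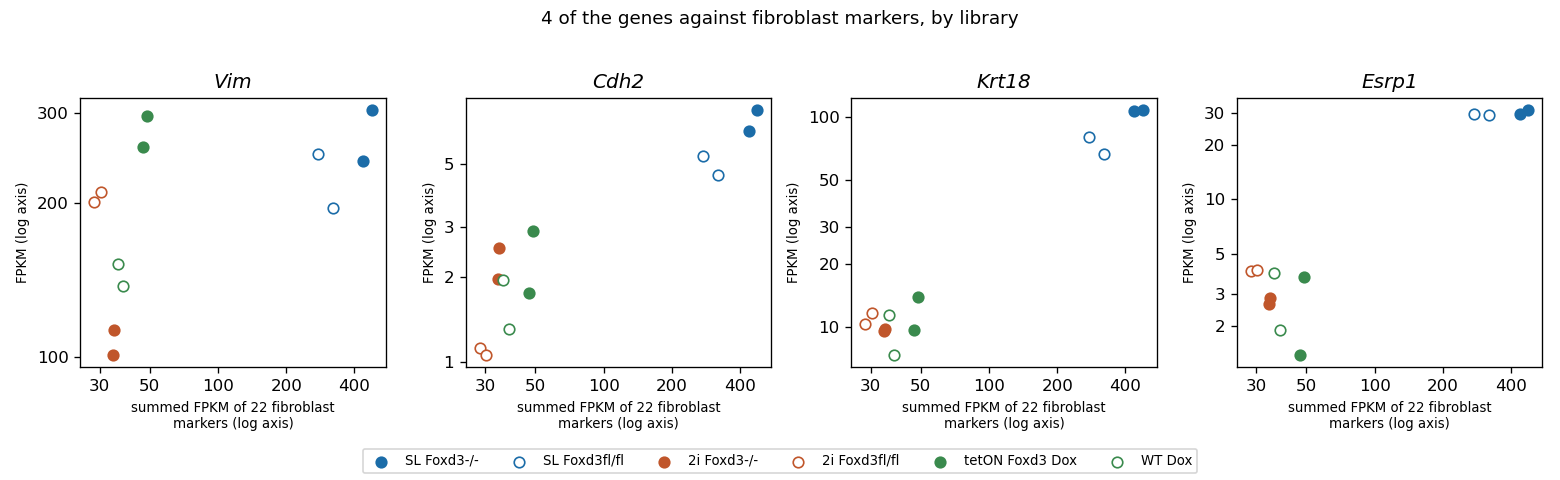
FPKM of Vim, Cdh2, Krt18 and Esrp1 (vertical, log axes) against the summed FPKM of 22 fibroblast markers (horizontal, log axes) in each of the 12 libraries. The 4 SL libraries lie at sums of 275 to 476 and the other 8 at 28.4 to 48.6, and Vim reached 258 and 296 FPKM in tetON Foxd3 Dox at sums of 46.8 and 48.6.

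In SL, the comparison that asks what the loss of Foxd3 does in serum, none of the 9 genes passed the test, in either direction. The share of all 12024 genes called in either direction was 0.00832% (1 gene), so the members' count of 0 does not set them apart from the background. The 1 gene called, Peg10, was listed at 0 in both SL Foxd3fl/fl libraries. The p-values given in the authors' deposited table, adjusted over its genes, called 0.535% of 19996 genes and again 0 of the 9. A limma fit with the replicate number as a block called 3 members higher and 2 lower, and 1171 genes higher and 826 lower over all. Same-numbered libraries share only a number in the labels. Over genes, the difference of replicate 1 minus replicate 2 correlated between the 2 SL groups (r = 0.608), but not between the 2 groups in 2i (r = -0.0528). Whether the SL libraries are paired is therefore not settled. At an unadjusted p under 0.05 in the limma fit without a block, 2 members were higher (Cdh2, Krt18) and 2 lower (Epcam, Cldn7). Of all 12024 genes, 730 were higher and 367 lower at that threshold. The 2 groups did not overlap for 7 of the 9. The share of all genes without overlap was not counted, so this count does not set the members apart.

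Among the epithelial surface and junction genes in SL, Cdh1 was at 132 and 141 FPKM in SL Foxd3-/-, against 153 and 162 FPKM in SL Foxd3fl/fl, a log2 difference of -0.21 ± 0.09 (SE; limma adjusted p = 0.593). Epcam was at 116 and 133 FPKM, against 145 and 162 FPKM (log2 difference -0.29 ± 0.11, limma adjusted p = 0.504). Cldn7 was at 46.8 and 49.4 FPKM, against 62.4 and 60.1 FPKM (-0.34 ± 0.10, limma adjusted p = 0.354). For these 3 genes both SL Foxd3-/- libraries lay below both SL Foxd3fl/fl libraries. Cldn6, at 59.0 and 58.3 against 68.8 and 62.1 FPKM, lay the same way round, and Esrp1, at 31.0 and 29.6 against 29.3 and 29.2 FPKM, lay slightly the other way (limma adjusted p = 0.791 and 0.968). Ocln overlapped between the groups, at 4.10 and 5.99 against 5.09 and 6.83 FPKM.

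The mesenchymal genes and the keratin lay the other way in SL. Cdh2 was at 7.73 and 6.50 FPKM in SL Foxd3-/-, against 5.32 and 4.55 FPKM in SL Foxd3fl/fl (log2 difference 0.45 ± 0.15, limma adjusted p = 0.452). Vim overlapped, at 304 and 242 FPKM in SL Foxd3-/-, against 250 and 195 FPKM in SL Foxd3fl/fl (0.29 ± 0.16, limma adjusted p = 0.691). Krt18 was at 109 and 107 FPKM in SL Foxd3-/-, against 80.3 and 66.9 FPKM in SL Foxd3fl/fl, which gave the smallest p of the 9 in this comparison (0.55 ± 0.12, 95% interval 0.26 to 0.83, limma adjusted p = 0.210). Its filament partner Krt8 was at 140 and 112 FPKM in SL Foxd3-/-, against 93.5 and 72.3 FPKM in SL Foxd3fl/fl (limma adjusted p = 0.308). Beside these, the summed fibroblast markers averaged 1.53 times as high in SL Foxd3-/- as in SL Foxd3fl/fl. Of 19 fibroblast markers tested by limma, 0 passed, with a median log2 difference of 0.54 (all genes: -0.01). By the p-values in the authors' deposited table, 6 of the 22 were higher (Col1a2, Col5a1, Fbn1, Bgn, Thbs1 and Prrx1) and 0 lower. The summed FPKM of 9 trophectoderm markers, a keratin-rich lineage, was 57.2 and 43.1 in SL Foxd3-/-, against 19.8 and 17.1 in SL Foxd3fl/fl. Tfap2c made up most of that sum, with 45.01 and 32.8 FPKM in SL Foxd3-/-, against 11.3 and 10.6 FPKM in SL Foxd3fl/fl, and it was also at 30.9 to 63.5 FPKM in the 2i libraries. Gcm1 was at 2.16 and 1.61 FPKM in SL Foxd3-/-, against 0.30 and 0.33 FPKM in SL Foxd3fl/fl. Hand1 was at 2.333 and 2.685 FPKM, against 0.607 and 0.880 FPKM. Cdx2 and Elf5 stayed at or below 1.01 FPKM in the 4 SL libraries, and Tpbpa was listed at 0 in all of them. Eomes was at 2.53 and 1.53 FPKM, against 3.99 and 1.94 FPKM. Of 5 trophectoderm markers tested by limma, 0 passed, with a median log2 difference of 1.01. By the authors' deposited p-values, 3 of the 9 were higher (Tfap2c, Gcm1 and Hand1) and 0 lower. The part of either cell type in the Vim, Cdh2 and Krt18 values was not tested.

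In the libraries labelled Foxd3-/- in 2i, 7 of the 9 genes differed from 2i Foxd3fl/fl, and they did not follow a single epithelial or mesenchymal direction. Cdh1, Epcam, Esrp1 and Vim fell, and Cdh2, Cldn6 and Cldn7 rose. All 9 genes had groups that did not overlap, but the share of all genes without overlap was not counted. The background was high here: 47.9% of 11637 genes were called higher and 19.7% lower by limma, and 20.6% and 20.2% of 19718 genes by the authors' p-values. The median log2 difference of all genes tested was 0.19, so each change is also given relative to it.

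The adhesion genes of the epithelial side fell in 2i. Cdh1 was at 84.5 and 88.0 FPKM in 2i Foxd3-/-, against 138 and 134 FPKM in 2i Foxd3fl/fl, a log2 difference of -0.65 ± 0.05 (limma adjusted p = 2.3e-05), or -0.84 relative to the median gene. Epcam fell to 26.0 and 27.5 FPKM in 2i Foxd3-/-, against 44.2 and 46.0 FPKM (log2 difference -0.73 ± 0.06, limma adjusted p = 3.1e-05; -0.92 relative to the median). The splicing regulator Esrp1 fell to 2.67 and 2.88 FPKM in 2i Foxd3-/-, against 4.03 and 4.06 FPKM (-0.42 ± 0.10, limma adjusted p = 0.00502; -0.61 relative to the median). The authors' deposited table gave signed folds of -1.83, -2.02 and -1.72 for these 3 genes. Gm26663, on the opposite strand, shares 127 bases of exon with Esrp1, and strand-specific counting is not stated.

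Cldn6 and Cldn7 rose in the same libraries. Cldn6 was at 22.5 and 23.0 FPKM in 2i Foxd3-/-, against 11.96 and 12.47 FPKM in 2i Foxd3fl/fl (log2 difference 0.85 ± 0.07, limma adjusted p = 3.2e-05; 0.66 relative to the median). Cldn7 was at 33.5 and 31.4 FPKM in 2i Foxd3-/-, against 24.1 and 23.0 FPKM (0.45 ± 0.07, limma adjusted p = 0.000467; 0.26 relative to the median). Both stayed called after scaling the libraries by median of ratios, with log2 differences of 0.63 and 0.23. Epcam and Cldn7, whose proteins bind each other, moved in opposite directions.

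Ocln and Krt18 depended on the scaling. Ocln was at 1.78 and 1.85 FPKM in 2i Foxd3-/-, against 2.06 and 2.14 FPKM in 2i Foxd3fl/fl (log2 difference -0.14 ± 0.10, limma adjusted p = 0.235; -0.33 relative to the median), and Krt18 was at 9.52 and 9.71 FPKM, against 10.3 and 11.6 FPKM (-0.17 ± 0.09, limma adjusted p = 0.124; -0.36 relative to the median). After median-of-ratios scaling both were called lower, with -0.29 (limma adjusted p = 0.0292) for Ocln and -0.38 (limma adjusted p = 0.00726) for Krt18. By the authors' deposited table they were lower too, at folds of -1.44 and -1.41. The 9 genes then stood at 3 higher and 6 lower in place of 3 higher and 4 lower. The background moved too: over all genes, scaling gave 3509 higher and 3921 lower by limma, in place of 5573 and 2291.

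The 2 mesenchymal genes split in 2i. Vim fell most of the 9, to 101 and 113 FPKM in 2i Foxd3-/-, against 201 and 211 FPKM in 2i Foxd3fl/fl (log2 difference -0.94 ± 0.06, limma adjusted p = 1.3e-05; -1.13 relative to the median). Cdh2 rose to 1.96 and 2.52 FPKM in 2i Foxd3-/-, against 1.12 and 1.06 FPKM (0.63 ± 0.12, limma adjusted p = 0.00142; 0.44 relative to the median), at a level far below that of Cdh1. The summed fibroblast markers were 34.3 and 34.6 FPKM in 2i Foxd3-/-, against 28.4 and 30.4 FPKM in 2i Foxd3fl/fl. Within that list Col1a1 rose (8.06 and 7.57 against 3.23 and 3.63 FPKM, limma adjusted p = 7.0e-05) and Thy1 fell (0.232 and 0.281 against 2.70 and 2.98 FPKM, limma adjusted p = 9.3e-06). Of 7 fibroblast markers tested, 4 rose and 3 fell. Their part in the Cdh2 and Vim values was not tested.

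With Foxd3 overexpressed, Vim was the only one of the 9 genes that passed the test. It rose to 258 and 296 FPKM in tetON Foxd3 Dox, against 137 and 152 FPKM in WT Dox (log2 difference 0.93 ± 0.10, 95% interval 0.67 to 1.19, limma adjusted p = 0.0261), and the authors' deposited table gave a fold of 1.92. The background was 0.994% of 11972 genes higher and 1.65% lower by limma, and 1.96% and 2.59% of 19996 genes by the authors' p-values, against 1 of 9 members higher and 0 lower by both. The call was lost without WT Dox replicate 1 (0.86, limma adjusted p = 0.0702), with the lone WT library assumed to vary like the other group, and with no filter on low values (limma adjusted p = 0.0727), where no gene of the table was called. The summed FPKM of the 22 fibroblast markers was 46.8 and 48.6 in tetON Foxd3 Dox, against 38.2 and 36.0 in WT Dox. Col3a1 was listed at 0 in all 4 libraries. Col1a1 was at 0.244 and 0.497 FPKM in tetON Foxd3 Dox, against 0.720 and 0.587 FPKM in WT Dox. Of 7 fibroblast markers tested by limma, 0 passed. By the authors' deposited p-values, 2 of the 22 were higher and 0 lower. The summed FPKM of 9 neural progenitor markers, a cell type rich in vimentin, was 16.0 and 20.7 in tetON Foxd3 Dox, against 6.15 and 10.99 in WT Dox. Of 3 tested, Nes (5.77 and 8.42 against 1.11 and 1.56 FPKM, limma adjusted p = 0.0298) and Sox1 (5.31 and 5.45 against 2.04 and 2.31 FPKM, limma adjusted p = 0.0421) rose and Pax6 did not pass. The part of fibroblasts or neural progenitors in the Vim value was not tested.

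No other member passed in this comparison. Cdh1 was at 56.2 and 85.0 FPKM in tetON Foxd3 Dox, against 103 and 102 FPKM in WT Dox, without overlap (log2 difference -0.56 ± 0.19, limma adjusted p = 0.190). Without tetON Foxd3 Dox replicate 2, the nearer of its 2 libraries to WT Dox, Cdh1 was called lower (-0.85, limma adjusted p = 0.0279). Epcam was at 51.5 and 53.4 FPKM in tetON Foxd3 Dox, against 61.2 and 57.1 FPKM in WT Dox (-0.17 ± 0.09, limma adjusted p = 0.355). Cdh2 overlapped, at 1.75 and 2.89 against 1.31 and 1.94 FPKM (0.33 ± 0.24, limma adjusted p = 0.491). Esrp1, Cldn6, Cldn7, Ocln and Krt18 overlapped as well. For Cldn6 the 95% interval of the difference ran from -0.97 to 1.05 and for Esrp1 from -1.18 to 0.83. These intervals are not adjusted for the number of genes, and they do not exclude changes of about that size in either direction.

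**Figure D3:**
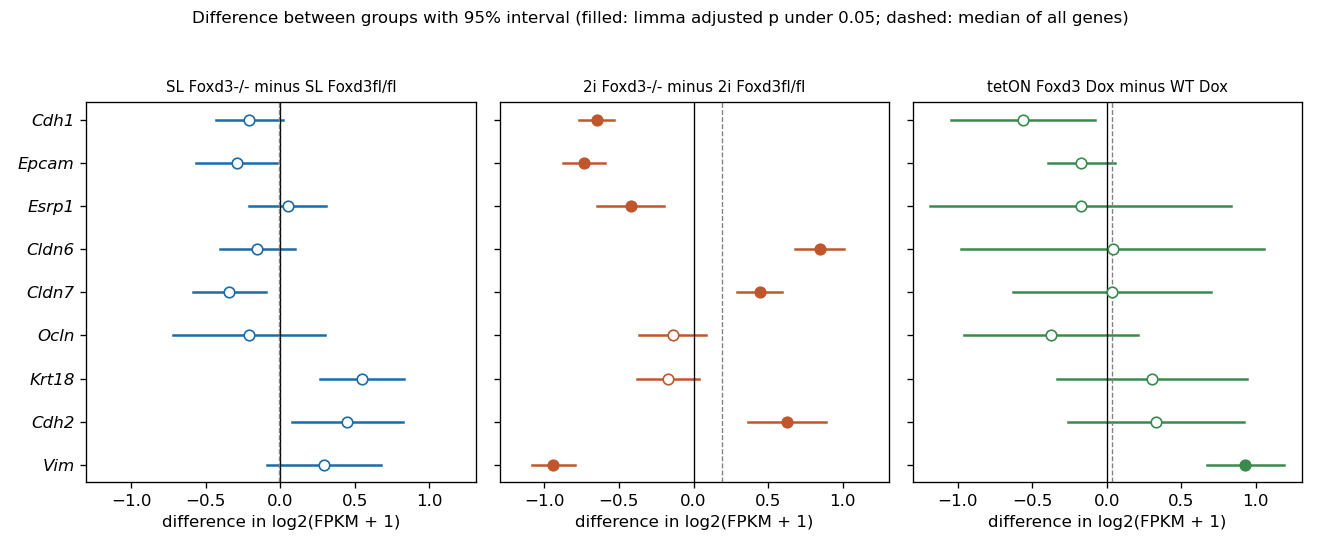
Differences in log2(FPKM + 1) of the 9 genes with 95% intervals, for SL Foxd3-/- minus SL Foxd3fl/fl (left), 2i Foxd3-/- minus 2i Foxd3fl/fl (middle) and tetON Foxd3 Dox minus WT Dox (right), with the median of all genes dashed. Filled points passed limma's test at an adjusted p under 0.05: 0 in SL, 7 in 2i and 1, Vim at 0.93, with overexpression.

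Whether the deletion difference itself depended on the culture was tested as the SL difference minus the 2i difference in the 8 deletion libraries, and 7 of the 9 genes passed. Cdh1, Epcam, Vim, Esrp1 and Krt18 had the higher difference in SL, and Cldn6 and Cldn7 had the lower one. The background was 5.55% of 12497 genes above and 18.4% below. Vim had the widest gap, 1.23 ± 0.19 on the log2 scale (0.29 in SL, -0.94 in 2i; limma adjusted p = 0.00600), followed by Cldn6 with -1.001 ± 0.11 (-0.15 in SL, 0.85 in 2i; limma adjusted p = 0.00287) and Cldn7 with -0.79 ± 0.11 (-0.34 in SL, 0.45 in 2i; limma adjusted p = 0.00496). These 3 genes passed whichever of the 8 libraries was left out. Krt18 differed by 0.72 (limma adjusted p = 0.0125), Esrp1 by 0.47 (limma adjusted p = 0.0370), Cdh1 by 0.44 (limma adjusted p = 0.0161) and Epcam by 0.44 (limma adjusted p = 0.0404), and each of these 4 failed the test when some single libraries were left out (limma adjusted p up to 0.0620, 0.131, 0.0750 and 0.138). Cdh2 did not pass (-0.18, 95% interval -0.63 to 0.27, limma adjusted p = 0.531), nor did Ocln (-0.07, 95% interval -0.64 to 0.49, limma adjusted p = 0.855). Foxd3 did not pass the test as lower in the libraries labelled Foxd3-/- in 2i, and medium, feeders and table changed together between the 2 sides of this test, so these cannot be told apart.

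Beyond the 9 genes, lists of related genes were counted in each comparison, leaving the 9 out. In 2i the counts of each list stand against 47.9% of all genes higher and 19.7% lower by limma. Counts after scaling stand against 3509 genes higher and 3921 lower over all, in place of 5573 and 2291. In 2i, 13 of 17 tight junction genes rose and 3 fell, with a median log2 difference of 0.69 against 0.19 for all genes. F11r, which encodes the junctional adhesion molecule JAM-A, rose to 47.6 and 50.4 FPKM in 2i Foxd3-/-, against 24.0 and 27.3 FPKM in 2i Foxd3fl/fl, and Tjp1, the scaffold ZO-1, to 24.5 and 27.1 FPKM, against 14.5 and 13.4 FPKM. Cldn3 rose to 7.71 and 7.91 FPKM, against 3.35 and 3.75 FPKM, while Cldn4 fell to 126 and 116 FPKM, against 162 and 151 FPKM, and Cldn5 and Crb3 were the others that fell. After median-of-ratios scaling 12 rose and 4 fell, with a median of 0.49 against -0.02 for all genes.

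Of 12 other adherens junction genes in 2i, 8 rose and 1 fell (6 and 3 after scaling). Jup, which encodes plakoglobin, rose to 58.4 and 65.7 FPKM in 2i Foxd3-/-, against 34.4 and 37.4 FPKM, and Ctnnd1, a catenin that binds the E-cadherin tail, to 58.7 and 60.2 FPKM, against 38.3 and 37.0 FPKM. Ctnnb1, which encodes β-catenin, was the 1 that fell, at 197 and 199 FPKM in 2i Foxd3-/-, against 232 and 219 FPKM in 2i Foxd3fl/fl (log2 difference -0.18, limma adjusted p = 0.0108). Of 10 keratin and desmosome genes 7 rose and 1 fell (3 and 3 of 9 after scaling). By the authors' p-values 4 genes of that list were higher and 4 lower, with Krt18 counted among them. The desmosome genes Dsp (16.8 and 17.8 against 7.44 and 6.66 FPKM) and Dsg2 (18.3 and 20.1 against 7.91 and 6.74 FPKM) rose, and Krt7 fell (3.53 and 4.40 against 6.69 and 7.13 FPKM).

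Epithelial regulators in 2i were split, with 6 of 13 higher and 4 lower as deposited, and 3 higher and 7 lower after scaling. Esrp2, a paralog of Esrp1 with a like splicing role, rose to 4.21 and 3.41 FPKM in 2i Foxd3-/-, against 1.65 and 1.69 FPKM, the opposite of Esrp1. Elf3, an epithelial transcription factor, fell to 25.4 and 28.0 FPKM, against 54.6 and 52.2 FPKM. Mesenchymal genes were split as well, 4 of 11 higher and 3 lower (3 and 5 after scaling). Tagln and Acta2, which encode proteins of contractile actin filaments, rose to 11.7 and 11.8 FPKM and to 9.51 and 8.48 FPKM in 2i Foxd3-/-, against 3.55 and 4.78 FPKM and 2.80 and 4.35 FPKM. Tgfbi, an extracellular matrix protein induced by TGF-β, fell to 2.31 and 2.15 FPKM, against 7.32 and 6.99 FPKM. Of 5 EMT transcription factors tested, Zeb1 rose to 4.95 and 4.82 FPKM in 2i Foxd3-/-, against 3.57 and 2.39 FPKM, Snai1 fell to 0.269 and 0.285 FPKM, against 1.72 and 2.13 FPKM, and Tcf4 fell to 11.7 and 12.2 FPKM, against 15.8 and 16.0 FPKM (1 and 3 after scaling).

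In SL, 0 genes of these 6 lists passed by limma, with list medians between 0.08 and 0.40 against -0.01 for all genes. The mesenchymal list had the median of 0.40, and its smallest p belonged to Cdh11, which encodes a cadherin of fibroblasts and osteoblasts, at 6.29 and 5.45 FPKM in SL Foxd3-/-, against 2.88 and 2.87 FPKM in SL Foxd3fl/fl (limma adjusted p = 0.182). Prrx1, an EMT factor that is also one of the 22 fibroblast markers, was at 7.92 and 6.39 FPKM, against 3.56 and 3.44 FPKM (limma adjusted p = 0.186). By the authors' deposited table these 2 genes were called higher, Cdh11 with a fold of 2.03 (adjusted p = 0.00696) and Prrx1 with a fold of 2.01 (adjusted p = 0.00461). The summed fibroblast markers of these libraries, given above, were higher in both SL Foxd3-/- libraries, and their part in these values was not tested.

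With Foxd3 overexpressed, few genes of the lists passed. Cdh3, which encodes P-cadherin, rose to 16.6 and 13.1 FPKM in tetON Foxd3 Dox, against 7.52 and 6.95 FPKM in WT Dox (log2 difference 0.94 ± 0.16, limma adjusted p = 0.04999), as 1 of 12 adherens junction genes. Grhl2, a transcription factor that maintains epithelial gene expression, fell to 2.21 and 2.96 FPKM in tetON Foxd3 Dox, against 9.05 and 6.90 FPKM in WT Dox (-1.32 ± 0.20, limma adjusted p = 0.0421), as 1 of 12 epithelial regulators. Krt17 fell to 4.24 and 9.51 FPKM, against 41.9 and 41.1 FPKM (-2.52 ± 0.32, limma adjusted p = 0.0324), as 1 of 8 keratin and desmosome genes. Of 11 mesenchymal genes 1 rose, Tgfbi, to 9.28 and 11.3 FPKM, against 4.51 and 4.58 FPKM (limma adjusted p = 0.0421). Of 15 tight junction genes 0 passed, and the 1 of 6 EMT factors that passed was Foxd3 itself. These calls were among those lost with no filter on low values.

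**Figure D4:**
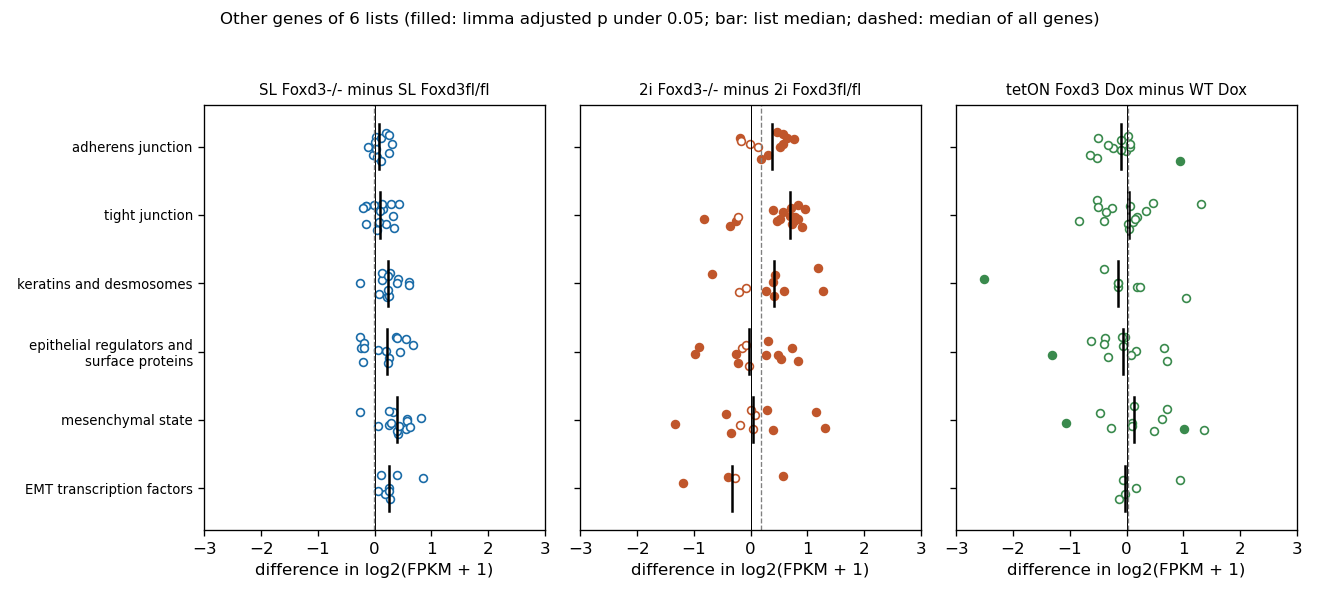
Differences in log2(FPKM + 1) of the genes in 6 lists other than the 9 genes and Foxd3, by comparison, each point a gene, filled where limma's adjusted p was under 0.05, with list medians as bars and the median of all genes dashed. In 2i, 13 of 17 tight junction genes rose, and Krt17, at -2.52, is the lowest point with overexpression.

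Over the 12 libraries, most of the 9 genes had their highest group means in SL, with Vim as the exception. The SL libraries share medium, feeders and table, so the correlations are a description over 12 libraries in 3 tables. Esrp1 and Krt18 were the most alike (Pearson r of log2(FPKM + 1) = 0.982), followed by Esrp1 and Ocln (0.958) and Cdh2 and Krt18 (0.934). Cdh1 and Cdh2 correlated at 0.422. Vim was least like the rest, with r between 0.0576 (Cldn7) and 0.615 (Epcam).

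Among 10930 ranked genes, the genes whose pattern was most like a member were mostly not junction genes. Krt18 was closest to Gbp4 (0.993), Cxcl10 (0.992) and Stmn4 (0.991), Esrp1 to Actb (0.985), Stmn4 (0.984) and Krt18 (0.982), and Cldn6 to Acta2 (0.988), Cox11 (0.986) and Nufip2 (0.979). Ocln was closest to Grb10 (0.983), Fam84b (0.970) and Esrp1 (0.958), and Cldn7 to Coa3 (0.984), Fam134c (0.983) and D1Ertd622e (0.981). Epcam was closest to Capza2 (0.976), Phax (0.970) and Rgs10 (0.969), and Cdh2 to Ppp4r4 (0.985), Nol9 (0.984) and Topors (0.981). Cdh1 (Psma4 0.951, Gart 0.930, Map7d2 0.929) and Vim (Arl8b 0.920, Dld 0.901, Cyb5 0.896) had the least close neighbours.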

How the data were processed

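Per the file headers, the authors deposited 1 table per comparison with library FPKM, the groups' mean read signal, a signed fold score and an unadjusted p-value. The submitters' processing notes name the tools TopHat2, Cufflinks, SAMtools, FastQC and DESeq2, with GRCm38 and mm10 as builds; no versions are given there. FPKM values are not counts, so each comparison was fitted with limma 3.58.1 (R 4.3.3, eBayes with trend) on log2(FPKM + 1), in which folds of low genes are understated. Genes with a mean of at least 1 FPKM in 1 group were kept, and p-values were adjusted by Benjamini and Hochberg over all of them, with a threshold of 0.05 and 2 residual degrees of freedom (4 for SL against 2i). The fit was tested on simulated data. An exact permutation of 2 against 2 cannot go below 0.3333 (two-sided) and was not used. The deposited p-values were adjusted over all genes of a table. 6 columns of group averages were not used. Named genes were the 9 members, Foxd3, up to 3 further genes per list and comparison by adjusted p, and the 3 most correlated genes per member; Ctnnb1, Cldn4, Cldn5, Crb3, Peg10, Pou5f1, the markers of other cell types and the genes in the closing observations were added after their values were seen. The result of 1 further list gene is not reported here. The members and lists were chosen with earlier results of these data known. Alternatives were another pseudocount (0.1), no filter, median-of-ratios scaling, the replicate block, leaving out each library and the authors' p-values.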

Additional observations from a re-analysis of the deposited data

Results flagged for a closer look

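For 7 of the 9 genes the difference between Foxd3-/- and Foxd3fl/fl libraries was not the same in SL as in 2i, by limma's interaction of medium and genotype in 8 libraries. Of these, 5 had the higher difference in SL and 2 the lower. The background was 5.55% of 12497 genes above and 18.4% below. The SL difference minus the 2i difference was 1.23 on the log2 scale for Vim, -1.0 for Cldn6 and -0.79 (-0.789) for Cldn7, and these passed with each library left out in turn. It was 0.72 (0.718) for Krt18, 0.47 (0.468) for Esrp1, 0.44 (0.441) for Cdh1 and 0.44 for Epcam. Without single libraries the limma adjusted p reached 0.0620 for Krt18, 0.131 for Esrp1, 0.0750 for Cdh1 and 0.138 for Epcam. With no filter on low values the limma adjusted p for Epcam was 0.0628. The SL and 2i differences of Vim, Cldn6, Cldn7, Esrp1 and Krt18 had opposite signs, and those of Cdh1 and Epcam had the same sign. No SL difference passed limma's test without a replicate block, nor did the 2i difference of Krt18, so several of these signs are uncertain. Foxd3 itself did not pass limma's test in 2i, and medium, feeders and table changed together between SL and 2i.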

How the results depend on the processing

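The 7 calls in 2i held under every alternative run. Median-of-ratios scaling moved the 2i counts over all genes to 3509 higher and 3921 lower, and the SL against 2i counts to 1452 above and 1226 below. The authors' p-values gave 88 higher and 19 lower genes in SL, 3980 lower in 2i, and 392 higher and 517 lower with overexpression. With no filter on low values, overexpression had 0 genes higher, 0 lower and 0 members higher by limma. Same-numbered libraries correlated in their deviations in SL (0.608) and overexpression (0.602) but not in 2i (-0.0528), and with 2 pairs they share only a number. The replicate block gave 1171 higher and 826 lower genes in SL, with 3 members higher (Cdh2, Vim, Krt18) and 2 lower (Epcam, Cldn7); 1229 and 1244 genes with overexpression, with 1 member lower (Cdh1); and 1414 and 3928 genes for SL against 2i. Leaving out 1 library (without a given replicate; a lone library was assumed to vary like the other groups) gave 1 to 229 genes higher and 0 to 84 lower in SL. It gave 6 to 116 higher and 36 to 226 lower with overexpression, with 0 to 1 members higher and 0 to 1 lower. For SL against 2i it gave 189 to 988 above and 494 to 2773 below, with 1 to 4 members above. The lowest counts with overexpression came without WT Dox replicate 1, and the highest in SL without SL Foxd3-/- replicate 2.

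The sign of members far from any call also turned. Leaving out 1 library, Ocln ranged over -0.439 to 0.0178 in SL and -0.300 to 0.157 in SL against 2i, where it was 0.0772 after scaling. With overexpression and without a library, Esrp1 ranged over -0.668 to 0.318, Cldn6 over -0.558 to 0.636 and Cldn7 over -0.244 to 0.319, and Cldn7 was at -0.263 by the authors' deposited fold. The cause was not tested. 2 libraries a group and an unknown depth limit all comparisons.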

Other observations

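The values here were picked after they were seen and carry no explanation. The FPKM ratio of Cdh1 to Cdh2 was 17.1 and 21.6 in SL Foxd3-/-, against 28.8 and 35.6 in SL Foxd3fl/fl. It was 43.1 and 34.9 in 2i Foxd3-/-, against 123 and 126 in 2i Foxd3fl/fl, and 32.1 and 29.4 in tetON Foxd3 Dox, against 79.0 and 52.4 in WT Dox. The ratio was lower without overlap in all 3 comparisons, with Foxd3 deleted in SL, labelled deleted in 2i and overexpressed, and no test was run on it. Its denominator Cdh2 was low, at 1.06 to 2.89 FPKM in the 2i and doxycycline libraries, and overlapped between the groups with overexpression. With all libraries and no replicate block, Cdh1 and Cdh2 passed limma's test in 2i only.

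Keratins other than Krt18 also differed with overexpression. Krt42 fell to 6.24 and 11.4 FPKM in tetON Foxd3 Dox, against 57.5 and 58.0 FPKM in WT Dox (log2 difference -2.64 ± 0.25, limma adjusted p = 0.0185), next to the fall of Krt17. Of 6 keratins tested there, leaving out Krt18, 2 fell and 0 rose. In 2i, Krt42 rose to 42.6 and 48.7 FPKM in 2i Foxd3-/-, against 28.9 and 29.6 FPKM in 2i Foxd3fl/fl (0.62 ± 0.07, limma adjusted p = 0.000146).

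Krt19, another keratin of simple epithelia, was at 57.5 and 51.2 FPKM in SL Foxd3-/- and 46.6 and 35.4 FPKM in SL Foxd3fl/fl, and at 3.56 to 12.04 FPKM in the other 8 libraries.

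Zeb2, which encodes an E-box repressor of Cdh1, was at 1.28 and 1.32 FPKM in tetON Foxd3 Dox, against 0.117 and 0.271 FPKM in WT Dox (log2 difference 0.95 ± 0.17, limma adjusted p = 0.0539, just short of the threshold). The authors' deposited table gave a fold of 9.40, with its p listed as 0.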
